A study of Homo sapiens with 36 samples.

Results

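The response to a derivative of oxyquinoline (OD) was compared between 2 human colorectal cancer cell lines, HT-29 and Caco-2, gene by gene. The members of the comparison were the 12 mRNA libraries of the control and OD groups, out of 18 mRNA libraries that also hold the CoCl2 groups and 36 libraries in the whole series. For each gene, the response in a line was the log2 fold change of OD over control, and the difference between the lines was the HT-29 response minus the Caco-2 response, an interaction term. Calls required an FDR under 0.05 and an absolute log2 value over 1, and "rose" and "fell" are used below for a response with an FDR under 0.05. All p-values come from the quasi-likelihood F test of edgeR with Benjamini-Hochberg adjustment over all genes tested. Levels are CPM (counts scaled to a common library size of 1e6 by TMM), and values with ± are the mean ± SD over 3 libraries.

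The groups were HT-29 control, HT-29 OD, Caco-2 control and Caco-2 OD, with 3 biological replicates in each. OD was given at 5 µM for 24 h. Control cells received the solvent alone, dimethyl sulfoxide at 0.5 µl for each ml according to the labels, while the study's methods give another solvent concentration. The agent is identified in the labels by supplier and catalogue number, so nothing is said here of its structure. CoCl2, at 300 µM for 24 h, served only as a second agent beside OD. Caco-2 had been kept under differentiating conditions for 21 days and no such step is given for HT-29, and the lines were grown in different media with different serum content, so cell line, differentiation and medium cannot be told apart in any difference below. Each line stands for itself alone as a model of intestinal epithelium, and the labels do not say what separates the biological replicates.

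OD compounds of this kind are used to imitate hypoxia at normal oxygen. Prolyl hydroxylases of the EGLN family mark the alpha subunits of hypoxia-inducible factor (HIF) for breakdown by the VHL ubiquitin ligase, and they need oxygen, iron and 2-oxoglutarate to do so. When they are blocked, HIF accumulates and switches on genes of glucose uptake, glycolysis, iron handling and blood vessel growth. An agent that binds iron or acts on other enzymes can also reach the oxidative stress response and sterol sensing. Protein folding in the endoplasmic reticulum and growth signalling can be reached as well. Gene lists for these were laid beside the HIF targets. The lists and their members were chosen with earlier results of these data known, so their counts are given as a description.

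The 12 libraries held from 12925719 to 22332639 counts, and the 20 most abundant genes took 8.73% to 10.8% of them. The library of Caco-2 OD replicate 1 stood further from its group than others did, with a chi-square of the counts, divided by its degrees of freedom, of 9.51 and 12.6 against replicates 2 and 3 and 3.43 between those. Summed levels of 10 epithelial markers were 5816 to 5952 CPM in HT-29 control and 5082 to 5271 in Caco-2 control. With OD they were 7480 to 8237 in HT-29 and 6807 to 7184 in Caco-2, where CDX1 was at 0 in all 3 libraries. The 20 enterocyte genes summed to 9449 to 9998 CPM in Caco-2 control and to 485 to 501 in HT-29 control. The markers of other cell types were low in every library. In HT-29 the 6 fibroblast markers went from 3.34 to 3.88 CPM in control to 7.04 to 8.20 CPM with OD, with COL1A2 and COL3A1 at 0 in both groups. The 6 leukocyte markers summed to 1.71 to 2.38 CPM in HT-29 control and 4.33 to 5.28 CPM with OD, where PTPRC was at 0. In Caco-2 the same lists went from 36.1 to 38.1 CPM to 26.4 to 31.5, and from 9.43 to 10.8 CPM to 7.43 to 8.74. Their part in the results was not tested.

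The response to OD differed between the lines for 2724 of 17921 genes tested (15.2%). The HT-29 response was the higher one for 1605 genes (8.96%) and the lower one for 1119 (6.24%). Taken line by line, OD called 2882 genes in HT-29, 1549 higher (8.64%) and 1333 lower (7.44%), and 2163 genes in Caco-2, 791 higher (4.41%) and 1372 lower (7.66%). With library size in place of TMM scaling the median of all genes moved by -0.12 in HT-29 and by -0.16 in Caco-2, and the HT-29 calls split into 1284 higher and 1716 lower, those of Caco-2 into 556 and 1883. The difference between the lines moved by 0.04 and gave 2716 calls, of which 2642 were also called with TMM. Without Caco-2 OD replicate 1 the difference was called for 2600 genes, and 2387 of them were among the 2724. All 30 genes named by class below kept their call without it. The median standard error (SE) of the difference was 0.186.

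A gene with no reads in a line cannot show a response there, so genes were split by the count filter in each line. Of the genes tested, 13530 passed it in both lines, and the others passed in 1 line or, for 630 genes, in neither. Among the 13530, 2160 were called (16.0%), 1225 higher in HT-29 (9.05%) and 935 lower (6.91%). Across these genes the responses of the lines had a Pearson r of 0.30, given as a description because genes are not independent. Of 416 genes called in both lines, 140 rose in both, 212 fell in both and 64 went in opposite directions.

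The called genes were sorted into classes. Opposite responses, with an FDR under 0.05 and opposite signs in the lines, numbered 912 of all genes tested (5.09%), and 839 of them were expressed in both lines. Of these 839, 411 rose in HT-29 and fell in Caco-2, and 428 did the reverse. Both responses exceeded 1 in size for only 104 genes (0.580%), 64 of them expressed in both lines. A response in HT-29 only, with a called HT-29 response and no called or opposite one in Caco-2, was found for 971 genes (5.42%), and one in Caco-2 only for 479 (2.67%), together 8.09% of the genes tested. Among genes expressed in both lines, 464 rose and 256 fell in HT-29 only, against 142 and 179 in Caco-2 only. Here "only" refers to the call, so the other line could rise or fall in the same direction by 1 or less. A missing call does not show a missing response, so the 95% confidence interval of the other line was read as well. It lay within -1 to 1 for 361 of the 464 and 195 of the 256 genes in HT-29 only, and for 120 of the 142 and 130 of the 179 in Caco-2 only.

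**Figure D1:**
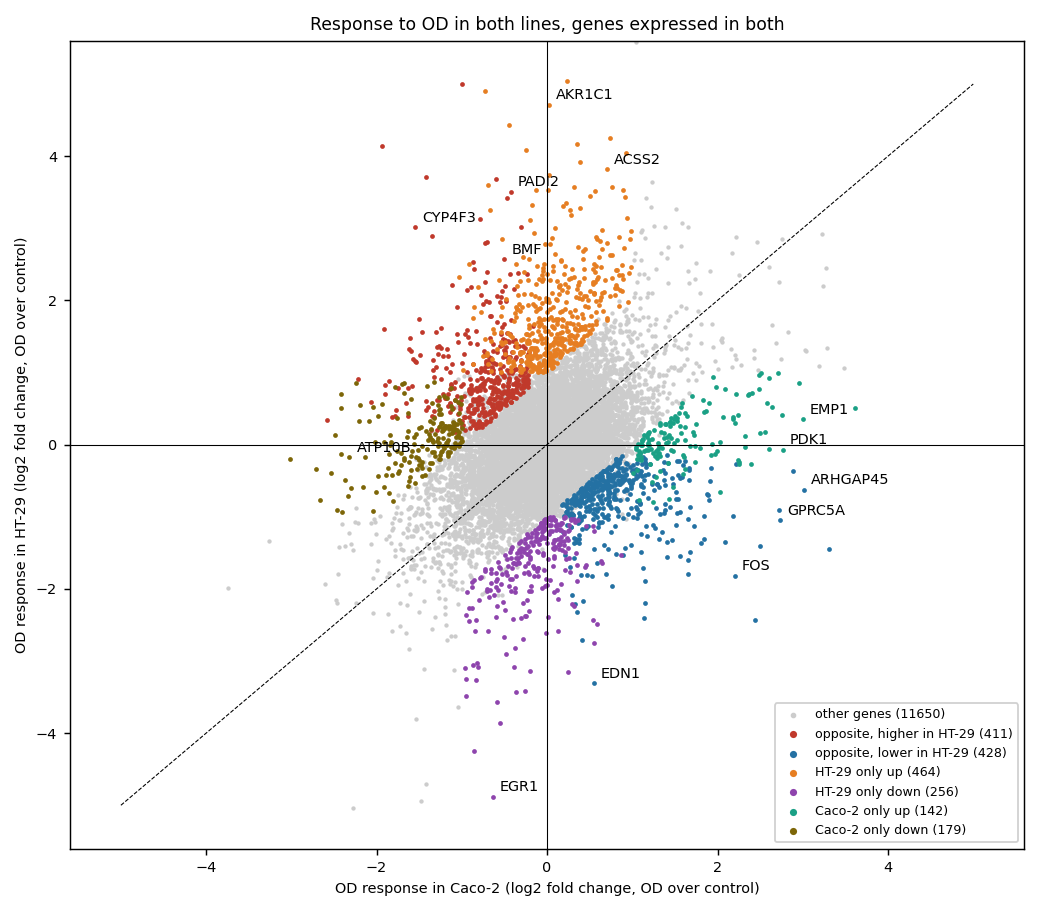
OD response in Caco-2 (horizontal) against OD response in HT-29 (vertical), both as log2 fold change of OD over control, for the 13530 genes expressed in both lines, each point a gene. Colours mark the 6 classes, the dashed line marks equal responses, and 1 gene lies outside the axes. Genes that rose in HT-29 only (464) form the largest coloured group. Opposite responses lie in the upper left and lower right quadrants with 411 and 428 genes, of which 33 and 31 exceeded 1 in size in both lines.

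The classes also differed in where they started. Genes that rose in HT-29 only had a median control level of 3.72 CPM in HT-29 and 7.23 in Caco-2, and genes that rose in Caco-2 only had 23.5 CPM in HT-29 and 7.95 in Caco-2. Opposite genes that fell in HT-29 and rose in Caco-2 had a median of 40.7 CPM in HT-29 control and 22.6 in Caco-2 control. The control libraries enter both the level and the response, so these levels are given as a description. Protein-coding genes made up 92.5% of the annotated genes expressed in both lines and 71.6% of those that fell in Caco-2 only, where 35 were long non-coding RNAs.

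Opposite responses with a rise in HT-29 and a fall in Caco-2 included CYP4F3, PADI2, TRPV3, TRANK1 and BMF, the 5 largest differences among genes with ample counts. Positions are those of GENCODE release 44 on GRCh38. CYP4F3 (chromosome 19, 15640897 to 15662825, plus strand), a hydroxylase of leukotrienes and fatty acids with close paralogs, stood at 1.81, 2.00 and 1.98 CPM in the HT-29 controls and at 16.1, 17.4 and 13.8 with OD. In Caco-2 it went from 39.2, 32.97 and 33.9 CPM to 13.4, 12.2 and 10.6. The groups did not overlap in either line, and with OD the level in HT-29 passed the level in Caco-2. The responses of 3.01 and -1.55 differed by 4.57 (SE 0.17, FDR 2.51e-20). PADI2 (chromosome 1, 17066761 to 17119451, minus strand), which converts arginine to citrulline in proteins, rose from 2.34, 2.51 and 2.58 CPM to 30.5, 27.4 and 27.4 in HT-29. In Caco-2 it fell from 32.1, 32.1 and 32.6 CPM to 22.1, 26.97 and 22.8, a small change next to that in HT-29, and the difference was 3.93 (SE 0.16, FDR 2.59e-19). BMF (chromosome 15, 40087890 to 40108892, minus strand), a pro-apoptotic BH3-only protein, rose from 8.43, 7.60 and 7.53 to 45.9, 47.7 and 45.7 CPM in HT-29 and fell from 82.4, 88.5 and 84.1 to 62.1, 58.5 and 59.6 in Caco-2. Its difference was 3.07 (SE 0.11, FDR 1.13e-20). TRANK1 went from 7.67 ± 1.04 to 33.8 ± 3.87 CPM (SD, n = 3) in HT-29 and from 33.3 ± 2.69 to 17.3 ± 0.924 in Caco-2. TRPV3, a warmth-sensitive cation channel, went from 2.30 ± 0.604 to 12.4 ± 2.05 CPM and from 10.01 ± 0.629 to 6.15 ± 0.624. Their differences were 3.08 and 3.10. In all 5 genes the HT-29 control libraries held the lowest levels of the 4 groups.

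Opposite responses with a fall in HT-29 and a rise in Caco-2 included FOS, EDN1, GPRC5A, ARHGAP45 and EPHA2, the 5 largest differences under the same limits. FOS (chromosome 14, 75278826 to 75282230, plus strand), an immediate early transcription factor subunit of AP-1, fell in HT-29 from 48.4, 62.3 and 66.7 CPM to 17.4, 15.9 and 17.2 and rose in Caco-2 from 4.97, 4.80 and 3.07 to 20.9, 18.2 and 20.6. The HT-29 level was 3.52-fold lower and the Caco-2 level 4.60-fold higher, which brought the OD groups of both lines close together. The difference was -4.02 (SE 0.17, FDR 2.69e-19). EDN1 (chromosome 6, 12290361 to 12297194, plus strand), the precursor of the peptide hormone endothelin-1, fell in HT-29 from 24.9, 28.2 and 27.03 CPM to 2.63, 2.64 and 2.81. In Caco-2 it rose from 5.03, 5.46 and 6.27 to 8.41, 8.52 and 7.43, and the difference was -3.85 (SE 0.18, FDR 7.65e-18). GPRC5A (chromosome 12, 12891559 to 12917937, plus strand), an orphan receptor induced by retinoic acid, fell from 393, 444 and 501 to 227, 202 and 216 CPM in HT-29. It rose from 125, 115 and 109 to 865, 753 and 717 in Caco-2, a 6.67-fold change, and the difference was -3.79 (SE 0.11, FDR 6.3e-23). EPHA2, an ephrin receptor tyrosine kinase, went from 274 ± 22.6 to 108 ± 5.87 CPM in HT-29 and from 17.9 ± 1.94 to 75.5 ± 2.53 in Caco-2. ARHGAP45, a GTPase-activating protein, went from 40.2 ± 2.01 to 26.2 ± 1.21 and from 13.3 ± 0.740 to 107 ± 12.8. In all 5 genes the HT-29 controls lay above the Caco-2 controls. ARHGAP45 overlaps POLR2E and EPHA2 overlaps EPHA2-AS1 on the other strand, and since the use of strand in counting was not stated, reads of such pairs cannot be told apart.

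**Figure D2:**
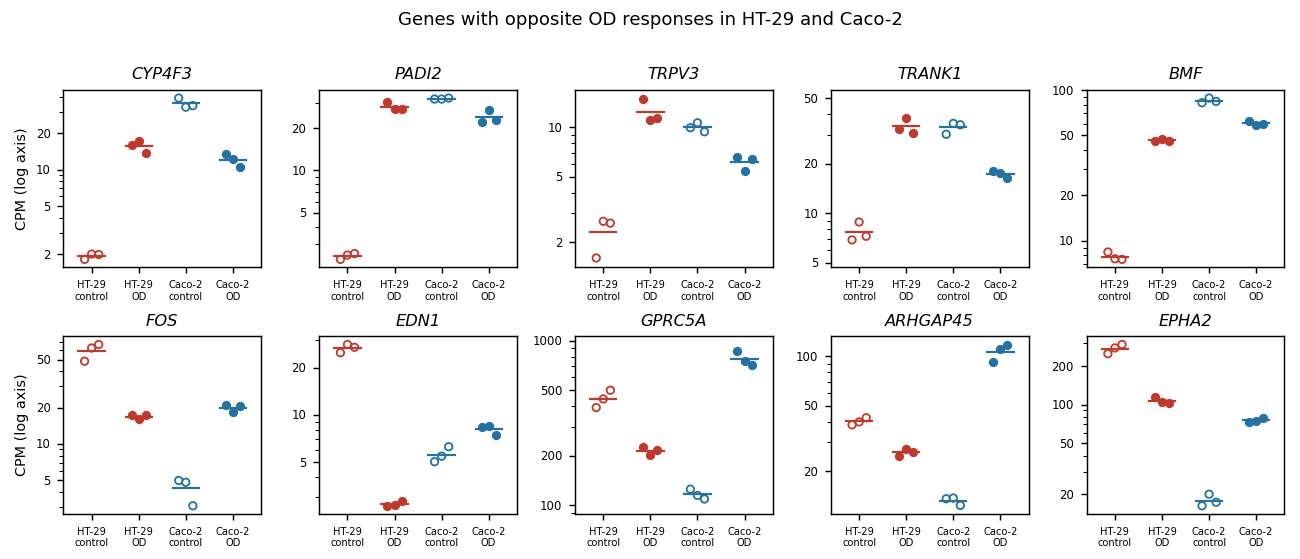
CPM on a log axis in each of the 12 libraries for the 10 named genes with opposite responses, HT-29 in red and Caco-2 in blue, controls open and OD filled, with a line at the group mean. In the upper row the red points move up and the blue points down with OD, and in the lower row the reverse, for example FOS from 59.1 ± 9.52 to 16.8 ± 0.790 CPM in HT-29 and from 4.28 ± 1.06 to 19.9 ± 1.48 in Caco-2.

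Among genes that rose in HT-29 only and met the limits on counts and intervals, AKR1C1 (chromosome 10, 4963253 to 4983283, plus strand) had the largest difference. It encodes an aldo-keto reductase of steroids and reactive carbonyls, and its close paralogs may share reads with it. AKR1C1 rose in HT-29 from 5.89, 4.74 and 6.18 CPM to 157, 142 and 146, a 26.2-fold change. In Caco-2 it stood at 211, 182 and 198 CPM in control and 238, 179.9 and 182 with OD, so that the groups overlapped and the 95% interval of the response ran from -0.15 to 0.19. The difference was 4.69 (SE 0.14, FDR 6.44e-23). Its neighbour AKR1C2 (chromosome 10, 4987775 to 5018031, minus strand) rose in HT-29 from 1.67, 1.49 and 1.59 to 29.6, 29.2 and 26.5 CPM and went in Caco-2 from 112, 114 and 114 to 189, 129 and 117, where OD replicate 1 was the high value. ACSS2 (chromosome 20, 34872146 to 34927962, plus strand), which makes acetyl-CoA from acetate and is a target of the sterol-sensing factor SREBP, rose in HT-29 from 27.96, 28.4 and 26.1 to 418, 356 and 386 CPM. In Caco-2 it rose too, from 220.1, 199 and 188 to 362, 301 and 324 CPM, but by 0.70 on the log2 scale against 3.82 in HT-29, and the difference was 3.12 (SE 0.11, FDR 1.96e-21). RAB3B, a small GTPase of regulated secretion, went from 2.42 ± 0.178 to 20.8 ± 5.00 CPM in HT-29 and from 75.98 ± 3.99 to 66.4 ± 2.11 in Caco-2. ITPKA, an inositol trisphosphate kinase, went from 5.42 ± 1.28 to 52.8 ± 4.43 CPM in HT-29 and from 15.6 ± 1.97 to 18.8 ± 1.73 in Caco-2. In these 5 genes the Caco-2 controls were higher than the HT-29 controls.

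Of the genes that fell in HT-29 only and met the limits on counts and intervals, EGR1 (chromosome 5, 138465479 to 138469303, plus strand) had the largest difference. It encodes an immediate early transcription factor induced by ERK signalling. EGR1 fell in HT-29 from 128, 165 and 172 CPM to 5.21, 5.77 and 4.84, which is 29.5-fold lower. In Caco-2 it started low, at 6.98, 8.49 and 8.59 CPM, and fell to 4.50, 5.205 and 5.69 with OD. With OD the 2 lines overlapped, and the difference in response was -4.25 (SE 0.20, FDR 4.23e-18). AJUBA (chromosome 14, 22971177 to 22982551, minus strand), a scaffold protein that restrains the Hippo pathway, fell in HT-29 from 166, 169 and 194 to 40.04, 39.97 and 40.3 CPM. In Caco-2 it stood at 175, 184 and 174 in control and 201, 192 and 190.2 with OD, with a 95% interval of 0.00 to 0.26 for the response, and the difference was -2.27 (SE 0.09, FDR 1.56e-19). CCN2 (chromosome 6, 131948176 to 131951372, minus strand), a matricellular protein and target of YAP, fell in HT-29 from 13.4, 11.99 and 12.3 CPM to 1.61, 2.104 and 2.20, and its Caco-2 response of -0.51 had the same direction. NCOA5, a nuclear receptor coactivator, went from 67.8 ± 3.78 to 16.7 ± 1.10 CPM in HT-29 and from 60.5 ± 3.07 to 65.7 ± 3.65 in Caco-2. SLC38A11, a member of an amino acid transporter family, went from 24.6 ± 1.38 to 3.47 ± 0.274 and from 8.25 ± 1.40 to 6.31 ± 0.466.

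The promoter of EGR1 (chr5:138465229-138465478, plus strand) is shown because the gene had the largest difference of those that fell in HT-29 only under these limits. It is given as the 250 bases before the start in RefSeq (GRCh38.p14), 5′ to 3′ on the strand of the gene, and capitals mark the CArG box bound by serum response factor, whose 2 sites begin 105 and 83 bases before the start.
EGR1: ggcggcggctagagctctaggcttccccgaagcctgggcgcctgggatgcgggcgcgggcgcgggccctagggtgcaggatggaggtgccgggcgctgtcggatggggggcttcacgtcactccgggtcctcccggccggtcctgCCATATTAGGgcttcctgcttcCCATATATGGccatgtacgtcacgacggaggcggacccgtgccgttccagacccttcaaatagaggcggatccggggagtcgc

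Of the genes that rose in Caco-2 only and met the limits on counts and intervals, PDK1 (chromosome 2, 172555373 to 172608669, plus strand) had the largest difference. It encodes the HIF-induced kinase that closes the pyruvate dehydrogenase gate into the mitochondria. PDK1 rose in Caco-2 from 23.1, 25.2 and 21.5 CPM to 151, 169.6 and 153, a 6.79-fold change. In HT-29 it stood at 50.8, 50.7 and 55.1 CPM in control and 56.9, 46.2 and 46.3 with OD. The HT-29 groups overlapped, the 95% interval of that response ran from -0.23 to 0.09, and the difference was -2.83 (SE 0.12, FDR 1.56e-19). EMP1 (chromosome 12, 13196723 to 13219941, plus strand), an epithelial membrane protein, rose in Caco-2 from 43.1, 42.7 and 36.2 to 352, 318 and 306 CPM and went in HT-29 from 26.8, 33.4 and 36.7 to 50.6, 34.7 and 39.4. GCNT3 (chromosome 15, 59594875 to 59640239, plus strand), a glycosyltransferase that branches mucin sugar chains, rose in Caco-2 from 9.84, 6.58 and 8.52 to 53.2, 34.01 and 32.6 CPM. In HT-29 it was far more abundant throughout, at 527, 604 and 729 in control and 549, 502 and 519 with OD. GABRA2, a subunit of the GABA-A receptor, went from 6.98 ± 1.59 to 32.8 ± 5.63 CPM in Caco-2 and from 15.7 ± 0.817 to 13.6 ± 0.542 in HT-29. LIMCH1, an activator of non-muscle myosin, went from 3.18 ± 0.547 to 18.9 ± 0.468 in Caco-2 and from 62.7 ± 4.84 to 70.5 ± 5.23 in HT-29. The difference of LIMCH1, -2.39, was -0.94 when limma-trend was run on the log2 table and no longer passed the limit of 1.

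Of the genes that fell in Caco-2 only and met the limits on counts and intervals, ATP10B, RCBTB1, GSTA4, GLUD1 and LBX2-AS1 had the largest differences. GLUD1 (chromosome 10, 87050202 to 87094843, minus strand), mitochondrial glutamate dehydrogenase, fell in Caco-2 from 1027, 936 and 1014 CPM to 386, 370.2 and 373. In HT-29 it was at 154, 168 and 184 in control and 180.3, 171 and 176 with OD, with overlapping groups and a 95% interval of -0.08 to 0.20. The difference was 1.46 (SE 0.09, FDR 1.82e-14). ATP10B (chromosome 5, 160563120 to 160852214, minus strand), a lysosomal lipid flippase, fell in Caco-2 from 17.3, 18.4 and 14.3 to 4.30, 2.90 and 2.85 CPM, with 63.4 ± 2.22 and 55.9 ± 1.75 in HT-29, and its difference of 2.14 was 0.80 when limma-trend was run on the log2 table. GSTA4, a glutathione transferase for lipid peroxidation products, went from 40.8 ± 2.83 to 15.8 ± 2.08 CPM in Caco-2 and from 13.6 ± 0.403 to 14.7 ± 0.736 in HT-29. RCBTB1 went from 28.1 ± 0.625 to 9.53 ± 0.626 and from 49.6 ± 1.39 to 53.3 ± 3.07. The long non-coding RNA LBX2-AS1, which overlaps LBX2 and PCGF1 on the other strand, went from 19.7 ± 1.07 to 8.42 ± 0.947 and from 7.08 ± 0.242 to 8.26 ± 1.45.

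**Figure D3:**
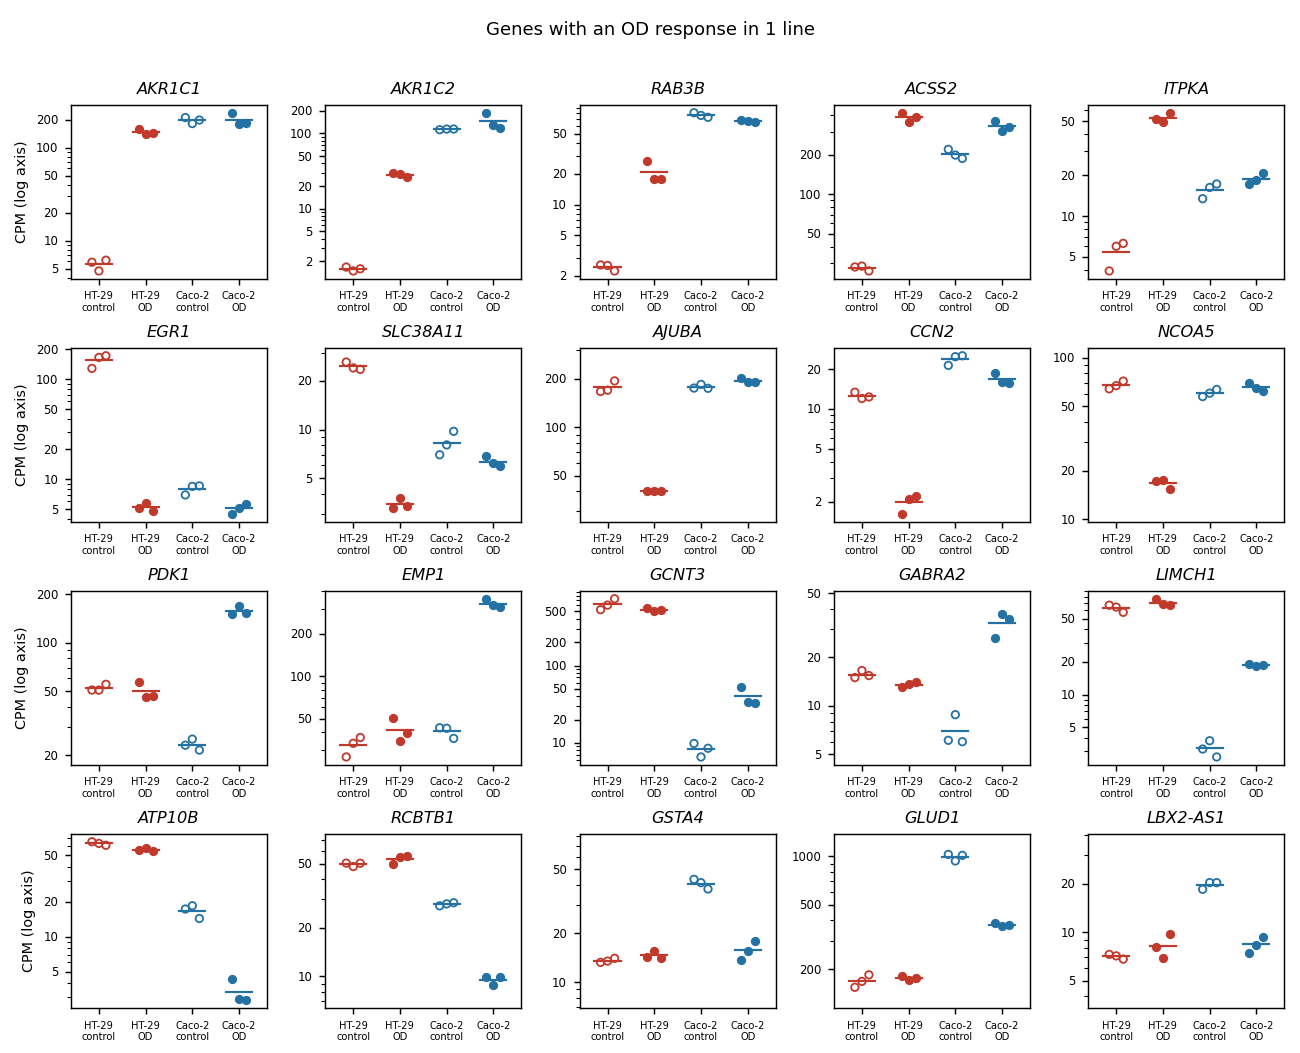
CPM on a log axis in each of the 12 libraries for the 20 named genes with a response in 1 line, HT-29 in red and Caco-2 in blue, controls open and OD filled, with a line at the group mean. Rows show, from the top, genes that rose in HT-29, fell in HT-29, rose in Caco-2 and fell in Caco-2. PDK1 in HT-29 stood at 52.2 ± 2.53 and 49.8 ± 6.13 CPM, while others moved in the other line too, such as ACSS2, which went in Caco-2 from 202 ± 16.5 to 329 ± 30.7 CPM.

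Some of the strongest responses belonged to genes that passed the count filter in 1 line only, 1795 in HT-29 and 1966 in Caco-2. Of the 2724 calls, 564 fell on genes that were not expressed in both lines, a group that includes the 630 that passed in neither. For the genes named in the following sentences no difference is read. Counts in the other line are given for CCL22, PTPRO, AQP5, AQP10 and ITGA5. For LUCAT1, CYP4F11, ADH4 and PDGFRB only the line of the response is given. In HT-29, CCL22, a chemokine that attracts regulatory T cells, went from 0, 2 and 3 counts in the controls to 250, 191 and 184 with OD, and the Caco-2 libraries held 7, 2 and 4 and 7, 5 and 3. The long non-coding RNA LUCAT1 rose in HT-29 from 1.94, 1.88 and 2.26 CPM to 39.4, 30.96 and 31.8, and CYP4F11 from 0.736, 0.571 and 0.753 to 17.04, 16.7 and 14.9. PTPRO, a receptor tyrosine phosphatase, fell in HT-29 from 25.2, 19.4 and 21.995 CPM to 3.06, 2.89 and 3.08, and AQP5, a water channel, from 35.4, 36.2 and 34.4 to 5.05, 5.35 and 5.61. Both had 0 counts in all 6 Caco-2 libraries. In Caco-2, AQP10, a channel for water and glycerol, rose from 3.43, 5.79 and 1.91 CPM to 68.5, 65.9 and 73.9 and had 0 counts in all 6 HT-29 libraries. ITGA5 (chromosome 12, 54395261 to 54419266, minus strand), the alpha subunit of the fibronectin receptor, rose in Caco-2 from 4.35, 5.00 and 3.88 CPM to 61.95, 61.98 and 67.3. In HT-29 it had 1, 0 and 2 counts in control and 2, 2 and 4 with OD. ADH4, an alcohol dehydrogenase, fell in Caco-2 from 52.2, 60.1 and 61.1 to 10.7, 14.96 and 10.9 CPM, and PDGFRB, a growth factor receptor, from 48.7, 56.98 and 53.2 to 13.6, 12.1 and 11.5.

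The lists of HIF targets had the larger median response in Caco-2. All 9 HIF core genes were called higher in Caco-2 and 4 in HT-29, with a median response of 2.46 and 1.00, beside -0.02 and -0.00098 over all genes tested. The difference was called lower in HT-29 for 5 of 9 genes, against 6.24% of all genes, and higher for 0. This list was chosen by the study for its response in Caco-2. Its counts and median there are therefore not independent evidence. Neither are its differences, in which the Caco-2 response is subtracted. In a further list of 23 HIF targets, 17 were called higher in Caco-2 against 8 in HT-29. The response was lower in HT-29 for 9, of which 8 were among the 20 genes expressed in both lines, and higher for 0. SLC2A1, the glucose transporter GLUT1, rose in Caco-2 from 163, 162 and 172 CPM to 1159, 1061 and 1126, a 6.74-fold change. In HT-29 it went from 457, 508 and 510.4 to 739.8, 591 and 627, a 1.33-fold change, and the difference was -2.35 (SE 0.10, FDR 9.38e-19). EGLN1, the main oxygen-sensing prolyl hydroxylase and itself a HIF target, rose in Caco-2 from 2.63, 3.42 and 3.34 CPM to 12.4, 15.4 and 16.5 and went in HT-29 from 6.82, 7.14 and 6.18 to 9.24, 8.18 and 9.25. INSIG2, a regulator of sterol sensing that HIF induces, rose in Caco-2 from 27.1, 24.9 and 26.2 to 97.2, 100.1 and 103 CPM and stood in HT-29 at 45.2, 48.8 and 53.3 and 51.6, 47.01 and 49.4. ANKRD37 differed by -3.11, SLC2A1 by -2.35, INSIG2 by -1.94 and EGLN1 by -1.83.

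Not every HIF target followed this order. NDRG1, a stress-induced gene, responded by 2.81 in HT-29 and 2.46 in Caco-2, and BHLHE40, a transcriptional repressor, by 2.66 and 2.17. The 95% intervals of these differences were 0.11 to 0.59 and 0.24 to 0.75. P4HA2, a collagen prolyl hydroxylase, responded by 2.40 and 1.91, and ADM, the vasodilator adrenomedullin, by 1.32 and 0.53. Of 9 transcripts of HIF subunits and hydroxylases, EGLN1 alone had a called difference, beside 15.2% of all genes tested. HIF1A responded by 0.64 in HT-29 and 0.07 in Caco-2, EPAS1 by 0.77 and 0.60, ARNT by 0.08 and 0.03, and VHL by 0.05 and 0.10.

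Glycolysis genes had positive medians in both lines, the larger one in Caco-2. Of 17 genes, 15 were called higher in Caco-2 and 7 in HT-29, with medians of 1.75 and 0.93. Over all genes tested, 4.41% were called higher in Caco-2 and 8.64% in HT-29. The difference was called lower in HT-29 for 6 genes, beside 6.24% of all genes, and higher for 0, beside 8.96%. HK2, the inducible hexokinase, went from 31.4 ± 1.08 to 286 ± 21.1 CPM in Caco-2 and from 39.02 ± 2.18 to 83.1 ± 7.62 in HT-29, a difference of -2.101 (SE 0.10, FDR 1.01e-17). LDHA, which turns pyruvate into lactate, went from 515 ± 25.3 to 2941 ± 344 CPM and from 805 ± 19.1 to 1604 ± 215, a difference of -1.52 (SE 0.11, FDR 1.76e-13). SLC16A3, the lactate exporter, responded by 2.60 and 0.93, and ENO2 by 3.22 and 2.92 in Caco-2 and HT-29.

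The other agent was laid beside OD for the same genes, with the same controls, so only the values are given. In HT-29, PDK1 stood at 365, 380.4 and 362 CPM with CoCl2, a response of 2.82 against -0.07 with OD. SLC2A1 responded by 3.08 to CoCl2 and 0.41 to OD in HT-29, EGLN1 by 2.92 and 0.42, INSIG2 by 1.62 and 0.00, and ANKRD37 by 3.34 and 0.51. In Caco-2 the responses to CoCl2 and OD were 3.34 and 2.76 for PDK1, 3.20 and 2.75 for SLC2A1, and 2.95 and 2.24 for EGLN1. In HT-29 all 5 responses to CoCl2 were 1.62 or more, and all 5 responses to OD were 0.51 or less. These 5 genes were named above for a lower response to OD in HT-29, so their low OD values follow from that choice. Over the 9 HIF core genes the median response to OD in HT-29 was 1.00.

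**Figure D4:**
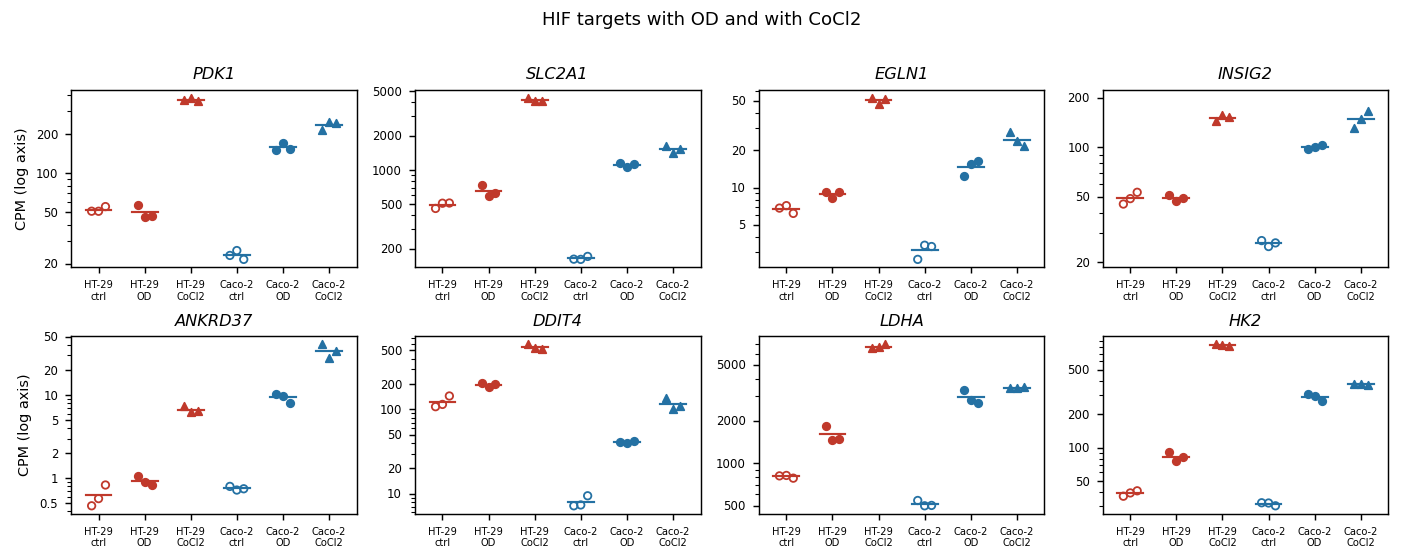
CPM on a log axis in each library for 8 HIF targets in HT-29 (red) and Caco-2 (blue), with open circles for control, filled circles for OD and triangles for CoCl2, and a line at the group mean. In HT-29 the OD points of PDK1 (49.8 ± 6.13 CPM) lie beside the controls (52.2 ± 2.53) and far below CoCl2 (369 ± 9.89), while in Caco-2 they lie near CoCl2.

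Growth signalling genes held many opposite responses. Of 21 early and feedback genes of the ERK pathway, 11 were called higher in Caco-2 and 1 in HT-29, where 7 were called lower. The difference was called lower in HT-29 for 14 of 21 genes, beside 6.24% of all genes, and higher for 0, and 11 of the 14 were opposite responses. The medians were -0.66 in HT-29 and 1.13 in Caco-2. DUSP6, the phosphatase that switches ERK off and tracks its activity, fell in HT-29 from 118, 138 and 138 CPM to 39.7, 33.7 and 32.96 and rose in Caco-2 from 9.72, 10.6 and 9.75 to 21.2, 24.1 and 21.04. Its difference was -3.04 (SE 0.13, FDR 1.75e-19). SPRY4, an inhibitor of receptor tyrosine kinase signalling, fell in HT-29 from 87.9, 102 and 107 to 45.95, 38.6 and 39.5 CPM and rose in Caco-2 from 14.6, 15.5 and 17.7 to 37.7, 33.4 and 36.2. HBEGF, a ligand of the EGF receptor, went from 85.4 ± 15.3 to 16.1 ± 3.09 CPM in HT-29 and from 3.23 ± 0.431 to 7.13 ± 2.26 in Caco-2. CCND1, cyclin D1, went from 79.6 ± 3.32 to 42.5 ± 2.77 and from 91.1 ± 5.05 to 238 ± 13.4, a difference of -2.29 (SE 0.10, FDR 2.31e-19). MYC fell in HT-29 from 169.8 ± 7.61 to 77.3 ± 2.98 CPM and responded by 0.28 in Caco-2. DUSP5 was an exception and rose in both lines, by 2.25 and 2.73, and the ligands EREG and AREG responded by -0.16 and -0.23 in HT-29 and -0.07 and 0.15 in Caco-2.

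DNA replication genes were called higher in Caco-2 and not in HT-29. Of 24 genes, 10 were called higher in Caco-2 and 0 in HT-29, where 1 was called lower. The difference was called lower in HT-29 for 15, beside 6.24% of all genes, and higher for 0, beside 8.96%. Of the 15, 12 were opposite responses. The medians were 0.97 in Caco-2 and -0.13 in HT-29. RRM2, the inducible subunit of ribonucleotide reductase, rose in Caco-2 from 111, 114 and 119 CPM to 307, 291 and 309.7 and went in HT-29 from 174, 175 and 181 to 171, 149 and 157, a difference of -1.55 (SE 0.09, FDR 1.86e-15). PCNA, the sliding clamp of DNA polymerase, went from 108 ± 2.53 to 215 ± 15.9 CPM in Caco-2 and from 111 ± 7.52 to 86.2 ± 0.912 in HT-29. MCM6, a subunit of the replicative helicase, went from 109.8 ± 2.99 to 188 ± 10.97 and from 48.5 ± 1.71 to 35.5 ± 2.37. E2F1, the transcription factor that drives many of these genes, responded by 1.44 in Caco-2 and 0.26 in HT-29. Genes of mitosis gave another picture. Of 20 genes 19 were tested, and 0 were called higher in either line. In HT-29 7 were called lower and in Caco-2 1, beside 7.44% and 7.66% of all genes. The difference was called lower in HT-29 for 7, beside 6.24% of all genes. Without Caco-2 Control replicate 1 that count was 4, and without replicate 3 it was 8. AURKA, a mitotic kinase, fell in HT-29 from 144, 142 and 151 CPM to 54.9, 61.4 and 61.3 and stood in Caco-2 at 113, 117 and 122 and 130.3, 109 and 106. CCNB1, cyclin B1, was called lower in both lines, by -1.42 and -1.03. KIF11, a spindle motor, responded by -1.01 in HT-29 and 0.59 in Caco-2.

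The promoter of MCM6 (chr2:135876444-135876693, minus strand), a gene with opposite responses, is shown for its E2F motifs, searched as TTTCCCGC or TTTGGCGC on both strands. Capitals mark the 2 matches, at 152 and 90 bases before the start.
MCM6: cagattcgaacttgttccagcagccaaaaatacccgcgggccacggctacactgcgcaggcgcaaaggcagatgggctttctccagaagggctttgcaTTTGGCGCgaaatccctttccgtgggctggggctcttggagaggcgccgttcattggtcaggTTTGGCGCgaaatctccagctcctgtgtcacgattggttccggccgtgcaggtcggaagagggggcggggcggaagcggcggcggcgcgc

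Genes of the oxidative stress factor NRF2 responded more in HT-29. Of 28 targets, 20 were called higher in HT-29 and 2 in Caco-2, with medians of 1.37 and 0.34. The difference was called higher in HT-29 for 13 genes, beside 8.96% of all genes, and lower for 1. Over the 26 targets expressed in both lines these counts were 12 and 1. OSGIN1, an oxidative stress-induced growth inhibitor, rose in HT-29 from 8.16, 9.02 and 9.04 CPM to 90.3, 85.96 and 83.5 and in Caco-2 from 11.8, 16.6 and 14.9 to 29.4, 34.95 and 36.2. GCLC, the catalytic subunit for glutathione synthesis, went from 67.8 ± 2.66 to 342 ± 25.3 CPM in HT-29 and from 43.6 ± 1.55 to 65.9 ± 4.96 in Caco-2, a difference of 1.73 (SE 0.10, FDR 4.81e-16). FTL and FTH1, the ferritin chains that store iron, rose by 1.39 and 2.05 in HT-29 and responded by 0.06 and 0.63 in Caco-2, and both have processed pseudogenes that can share their reads. The exception was SLC7A11, the cystine importer, which fell in HT-29 from 441 ± 37.9 to 240.4 ± 17.7 CPM and rose in Caco-2 from 17.4 ± 2.04 to 30.5 ± 5.73. HMOX1, the classic marker of this pathway, responded to OD by 1.34 in HT-29 and 0.46 in Caco-2, and to CoCl2 by 8.65 and 5.11.

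Sterol synthesis genes had positive medians in both lines, the larger one in HT-29. Of 22 genes, 20 were called higher in HT-29 and 4 in Caco-2, with medians of 1.92 and 0.77. The difference was called higher in HT-29 for 11, beside 8.96% of all genes, and lower for 0, beside 6.24%. HMGCS1, which makes the HMG-CoA that feeds cholesterol synthesis, rose in HT-29 from 112, 105 and 108 CPM to 898, 721 and 765 and in Caco-2 from 869, 779.8 and 794 to 1328, 1209.7 and 1101. Its difference was 2.30 (SE 0.11, FDR 1.79e-17). INSIG1, the sterol-sensing partner of SCAP, went from 76.2 ± 7.40 to 621 ± 52.4 CPM in HT-29 and from 185 ± 26.3 to 442 ± 25.6 in Caco-2. Of 13 genes of fatty acid synthesis, 6 were called higher in HT-29 and 0 in Caco-2, beside 8.64% and 4.41% of all genes. Among the 6 was FASN, at 1.67 against 0.36 in Caco-2.

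The endoplasmic reticulum chaperones had the larger median response in HT-29 (1.19 against 0.33) and the integrated stress response in Caco-2 (0.79 against 0.17). Of 15 chaperone and folding genes, 11 were called higher in HT-29 and 1 in Caco-2, beside 8.64% and 4.41% of all genes. The difference was called higher in HT-29 for 7 and lower for 0, beside 8.96% and 6.24% of all genes. HSPA5, the chaperone BiP, rose in HT-29 from 349.6, 383 and 450.1 CPM to 1555, 1427 and 1487 and in Caco-2 from 656, 729 and 699 to 1096, 916 and 833, a difference of 1.47 (SE 0.11, FDR 1.41e-12). SDF2L1 and CRELD2, factors of the same compartment, rose by 1.79 and 1.45 in HT-29 and fell by 0.67 and 0.49 in Caco-2. Of 24 genes of the integrated stress response, 8 were called higher in Caco-2 against 2 in HT-29, beside 4.41% and 8.64% of all genes. The difference was called lower in HT-29 for 8 and higher for 1, beside 6.24% and 8.96% of all genes. All of these differences were among the 21 genes expressed in both lines. ATF3, a stress-induced transcription factor, fell in HT-29 from 114, 153 and 188 CPM to 87.5, 72.4 and 70.2 and rose in Caco-2 from 4.35, 5.07 and 4.23 to 26.01, 19.1 and 16.6, a difference of -3.16 (SE 0.21, FDR 6.22e-14). CHAC1, which degrades glutathione, responded by -0.87 in HT-29 and 1.04 in Caco-2, and PPP1R15A, the feedback phosphatase subunit of the pathway, by 0.47 and 1.86. DDIT3, the factor CHOP, responded by 1.22 and 1.00, and this list shares DDIT4, SLC7A11, STC2 and GDF15 with other lists. The 10 heat shock genes had 0 calls in either line and 0 in the difference by edgeR and by DESeq2, with 5 differences at an unadjusted p under 0.05. DNAJB1 had the most negative value of -0.78 (95% interval -0.97 to -0.58) and HSPE1 the highest of 0.52 (0.22 to 0.81).

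HSPA5 (chr9:125241344-125241593, minus strand) is shown for the endoplasmic reticulum stress element, searched on both strands as CCAAT, any 9 bases and CCACG. Capitals mark the match at 66 bases before the start.
HSPA5: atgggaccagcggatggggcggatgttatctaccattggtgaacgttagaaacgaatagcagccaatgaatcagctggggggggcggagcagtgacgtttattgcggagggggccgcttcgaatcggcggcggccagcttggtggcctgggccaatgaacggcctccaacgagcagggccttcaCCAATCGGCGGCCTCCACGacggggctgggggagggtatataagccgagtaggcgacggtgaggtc

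**Figure D5:**
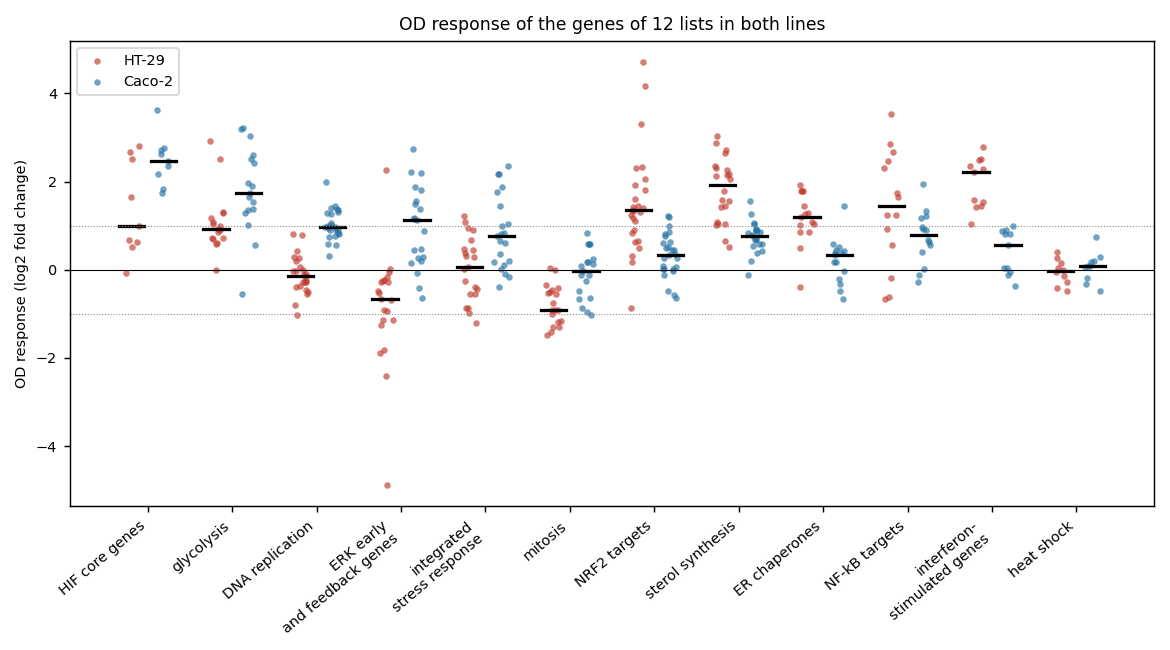
OD response (log2 fold change) of the genes of 12 lists that were expressed in both lines, HT-29 in red and Caco-2 in blue, each point a gene and each black bar the median of these genes, with dotted lines at -1 and 1. The Caco-2 points lie higher for HIF core genes, glycolysis, DNA replication and ERK genes, the HT-29 points lie higher for NRF2 targets, sterol synthesis, chaperones, NF-kB targets and interferon-stimulated genes, and heat shock genes lie near 0 in both.

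Interferon-stimulated genes rose in HT-29. All 12 were called higher in HT-29 and 0 in Caco-2, with medians of 2.16 and 0.30. The difference was called higher in HT-29 for 9 and lower for 0, beside 8.96% and 6.24% of all genes. All 9 were among the 11 expressed in both lines. IFIT1, an antiviral RNA-binding protein, rose in HT-29 from 22.1, 35.5 and 30.00 CPM to 184, 238 and 184 and stood in Caco-2 at 9.95, 10.6 and 10.2 and 14.5, 8.81 and 8.19. The Caco-2 response had a 95% interval of -0.44 to 0.51, and the difference was 2.75 (SE 0.29, FDR 1.12e-09). IFIT3, a partner of IFIT1, rose from 24.5, 30.8 and 28.1 to 147, 183 and 146 CPM in HT-29 and went from 8.23, 6.58 and 6.68 to 12.1, 9.29 and 10.3 in Caco-2. IRF7 and IFI27 did not pass for the difference, with responses of 1.43 and 1.04 in HT-29 and 0.99 and 0.80 in Caco-2. IFI44L had 0, 0 and 1 counts in the Caco-2 controls and 0, 0 and 0 with OD, so no difference is read for it. In HT-29 the responses to CoCl2 were 1.51 for IFIT1 and 1.44 for IFIT3.

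The promoters of IFIT1 (chr10:89392373-89392622, plus strand) and IFIT3 (chr10:89327747-89327996, plus strand) are shown because both genes rose in HT-29 and carry the interferon-stimulated response element, searched on both strands as GAAA, any 2 bases and GAAA. Capitals mark its 2 matches, which begin 116 and 103 bases before the start in IFIT1 and 156 and 122 bases before it in IFIT3.
IFIT1: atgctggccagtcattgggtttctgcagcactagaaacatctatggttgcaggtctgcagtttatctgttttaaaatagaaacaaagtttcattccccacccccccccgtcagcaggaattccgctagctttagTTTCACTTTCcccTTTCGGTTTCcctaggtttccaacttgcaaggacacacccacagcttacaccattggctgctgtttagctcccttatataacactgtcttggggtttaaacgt
IFIT3: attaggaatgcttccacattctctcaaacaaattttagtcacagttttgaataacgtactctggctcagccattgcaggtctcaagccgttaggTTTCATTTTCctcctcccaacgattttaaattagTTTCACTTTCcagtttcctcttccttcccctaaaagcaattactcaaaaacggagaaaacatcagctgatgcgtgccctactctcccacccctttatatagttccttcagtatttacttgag

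Of 19 NF-kB targets, 14 were expressed in both lines. Of these, 9 were called higher in HT-29 and 4 in Caco-2. The difference was called higher for 6 and lower for 3, beside 9.05% and 6.91% of all genes expressed in both lines. The median difference of the 14 was 0.73. Without HT-29 Control replicate 2 the lower differences, over all 19, went from 3 to 1. ICAM1, a leukocyte adhesion molecule, rose in HT-29 from 6.22, 5.198 and 5.15 CPM to 70.8, 57.5 and 61.3 and in Caco-2 from 28.99, 32.2 and 28.3 to 50.8, 55.2 and 60.1, a difference of 2.64 (SE 0.14, FDR 6.18e-17). TNFAIP3, a feedback inhibitor of NF-kB, went from 5.51 ± 0.109 to 30.5 ± 4.11 CPM in HT-29 and from 41.1 ± 2.54 to 60.97 ± 3.43 in Caco-2. SOD2, mitochondrial superoxide dismutase, went from 38.3 ± 1.59 to 128 ± 22.3 and from 113 ± 6.99 to 113 ± 11.4. CXCL3, CCL20 and IER3 had the lower response in HT-29, with differences of -1.54, -1.01 and -1.06. CXCL10 had 8, 17 and 20 counts in HT-29 control and 195, 203 and 201 with OD, against 4, 4 and 7 and 1, 1 and 0 in Caco-2.

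Differentiation and surface genes were mixed. Of 20 enterocyte genes only 10 were expressed in both lines. Of these 10, 3 differences were called higher and 3 lower in HT-29, beside 9.05% and 6.91% of all genes expressed in both lines. VIL1, the microvillus protein villin, fell in HT-29 from 216, 215 and 213 CPM to 91.7, 99.1 and 96.4 and stood in Caco-2 at 762, 808 and 778 and 834, 863 and 870.3, a difference of -1.29 (SE 0.09, FDR 3.82e-14). CDHR5, a microvillus cadherin, rose in HT-29 from 27.1 ± 4.36 to 79.6 ± 4.51 CPM and responded by 0.15 in Caco-2. Of the mucins, MUC17, a membrane mucin, rose in HT-29 from 6.89, 5.65 and 6.02 to 42.2, 31.1 and 34.6 CPM and stood in Caco-2 at 182, 187 and 166 and 169.98, 209.7 and 221, while MUC2, the secreted gel-forming mucin, went from 23.5 ± 1.92 to 13.9 ± 2.32 in HT-29. Of the 14 genes of the integrins and the urokinase system expressed in both lines, 3 differences were higher and 1 was lower in HT-29. The shares over all genes expressed in both lines were 9.05% and 6.91%. ITGA2, the alpha subunit of a collagen receptor, fell in HT-29 from 187, 186 and 184 CPM to 82.9, 72.9 and 70.1 and rose in Caco-2 from 28.9, 30.99 and 30.8 to 67.7, 79.1 and 79.4, a difference of -2.62 (SE 0.11, FDR 3.45e-19). PLAU, the protease urokinase, had 3, 2 and 7 counts in HT-29 control and 134, 89 and 120 with OD, and 16, 15 and 15 and 12, 8 and 7 in Caco-2. PLAUR, its receptor, rose in both lines, by 1.52 and 1.68, with a 95% interval of -0.67 to 0.34 for the difference.

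Other signalling lists held single genes with a large difference. ID1, a target of BMP signalling that blocks differentiation factors, fell in HT-29 from 60.2, 65.9 and 70.7 CPM to 28.6, 28.6 and 27.6. In Caco-2 it rose from 3.26, 2.57 and 4.09 to 9.73, 7.10 and 8.47, a difference of -2.57 (SE 0.18, FDR 9.75e-14). Of the 8 BMP genes expressed in both lines, 4 had a lower response in HT-29 and 0 a higher one. The shares over all genes expressed in both lines were 6.91% and 9.05%. Of the 14 Wnt targets expressed in both lines, 4 were lower and 1 higher, beside 6.91% and 9.05% of all genes expressed in both lines. With limma-trend run on the log2 table, which tested 10 of the list, 1 was called lower. DKK1, a secreted Wnt inhibitor, fell in HT-29 from 41.2 ± 2.71 to 3.29 ± 0.784 CPM and in Caco-2 from 109 ± 13.1 to 52.9 ± 4.35, a difference of -2.59 (SE 0.17, FDR 4.13e-14). PROX1, a homeobox factor, went from 15.7 ± 0.955 to 54.3 ± 3.37 CPM in HT-29 and from 27.4 ± 1.99 to 17.4 ± 0.836 in Caco-2. Of the 6 genes of the NOX family oxidases expressed in both lines, 3 differences were higher and 1 was lower in HT-29. The shares over all genes expressed in both lines were 9.05% and 6.91%. The lower one was NOX1, the superoxide-producing oxidase of colon epithelium. NOX1 fell in both lines, from 88.6, 89.2 and 95.1 to 3.22, 3.91 and 3.302 CPM in HT-29 and from 8.46, 9.67 and 10.1 to 3.64, 3.49 and 3.33 in Caco-2, a difference of -3.29 (SE 0.19, FDR 1.68e-15).

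Smaller lists covered metals, drugs and DNA damage. Of 10 genes of metallothioneins and zinc export 8 were tested, 6 of them expressed in both lines. Of these 6, 4 had a lower response in HT-29 and 0 a higher one, beside 6.91% and 9.05% of all genes expressed in both lines. With only the control and OD libraries 6 genes of the list were tested and 3 were lower. Without Caco-2 Control replicate 1, 3 of 8 were lower. MT2A, which shares reads with near-identical copies, responded by -1.11 and 1.51. CYP3A5, a drug-metabolising cytochrome P450, rose in HT-29 from 257, 284 and 313 to 583, 499 and 527 CPM and fell in Caco-2 from 27.2, 27.7 and 27.7 to 10.8, 12.5 and 11.3, a difference of 2.16 (SE 0.12, FDR 3.57e-16). Of the 12 genes of drug metabolism and efflux expressed in both lines, 3 were called lower in each line. Of the same 12, 1 was called higher in HT-29 and 3 were called so in Caco-2. In this list 2 differences were higher and 5 lower in HT-29, beside 9.05% and 6.91% of all genes expressed in both lines. Of the 5 targets of the aryl hydrocarbon receptor expressed in both lines, 2 differences were higher and 0 lower in HT-29. The shares over all genes expressed in both lines were 9.05% and 6.91%. CYP1A1, the main target of this receptor, had 4, 0 and 1 counts in HT-29 control and 22, 22 and 41 with OD, and stood in Caco-2 at 10.4 ± 1.73 and 8.81 ± 1.29 CPM. Its HT-29 control counts were near the floor, so no fold change is read. Of 14 iron-handling genes the ferritin chains above were called higher in HT-29, a count of 2 beside 8.96% of all genes, while TFRC, the transferrin receptor, responded by 0.64 and 1.12. Of 19 p53 targets, 1 was higher and 3 lower, beside 8.96% and 6.24% of all genes, and limma-trend run on the log2 table called 0 in either direction. CDKN1A, a cell cycle inhibitor, responded by 1.72 in HT-29 and 0.94 in Caco-2. The 13 mitochondrially encoded genes had 0 calls by edgeR and by DESeq2, with 6 differences at an unadjusted p under 0.05 and medians of -0.55 and -0.65.

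The interferon-stimulated response element was found in 6 of 9 (66.7%) of the interferon-stimulated genes with a promoter in the table, against 839 of 27305 (3.1%) of all promoters of the same length. The shares were 23 of 318 (7.2%) for genes that rose in HT-29 only and 4 of 101 (4.0%) for those that rose in Caco-2 only. For all genes expressed in both lines, from which these classes were drawn, the share was 220 of 9805 (2.2%). The E2F motif was in 9 of 20 (45.0%) of the replication genes and 536 of 27305 (2.0%) of all promoters. It was in 23 of 330 (7.0%) of opposite genes that fell in HT-29 and in 4 of 284 (1.4%) of those that rose there. All genes expressed in both lines had a share of 308 of 9805 (3.1%). The endoplasmic reticulum element was in 5 of 15 (33.3%) of the chaperone genes and 22 of 27305 (0.1%) of all promoters, and the NF-kB motif in 10 of 16 (62.5%) of the NF-kB targets and 1380 of 27305 (5.1%) of all. The HIF core motif, ACGTG or GCGTG, was in 7 of 8 (87.5%) of the HIF core genes and 11763 of 27305 (43.1%) of all promoters. Among genes expressed in both lines the share was 5667 of 9805 (57.8%), and in other lists it was 14 of 15 (93.3%) for the chaperones and 13 of 15 (86.7%) for the sterol genes. PDK1, SLC2A1 and AKR1C1 had no match for it in this window. The antioxidant element, TGAC, any 3 bases and GC, was in 5 of 21 (23.8%) of the NRF2 targets and 3013 of 27305 (11.0%) of all, and the CArG box in 1 of 14 (7.1%) of the ERK genes and 312 of 27305 (1.1%) of all. A match describes the sequence and not binding, and no match says only that these letters are not in these 250 bases.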

How the data were processed

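Control, OD and CoCl2 libraries of HT-29 and Caco-2, 3 per group, were prepared with a stranded mRNA kit and sequenced single-end. Reads were trimmed (cutadapt 2.10), checked (FastQC 0.11.9) and aligned (STAR 2.7.5b) by the authors, per the submitters' processing notes, and counted on GENCODE genes of GRCh38. The counting tool and its use of strand are not given in the sources used here. The authors deposited raw counts per gene and log2 values, by name and range log2 of RPKM + 1 scaled within each line (edgeR 3.30.3 is named), in which a gene filtered out in a line is listed at 0. The miRNA tables were not used, and 0 columns were unmapped.

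The 17921 of 60591 genes that passed filterByExpr over the 6 groups were fitted in all 18 libraries with edgeR 4.0.16 (R 4.3.3), TMM scaling, 1 coefficient per group and the quasi-likelihood F test, two-sided, with Benjamini-Hochberg adjustment. A call needed an FDR under 0.05 and an absolute log2 value over 1. The SE was the coefficient divided by the square root of F. A gene was expressed in both lines when it passed the filter in the control and OD libraries of each line. Depth was 12925719 to 22332639 counts per library, and a level under 3 counts is near the floor. The series' design text calls the replicates biological.

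Named genes were the 5 with the largest difference in each of 6 classes, with a mean count of at least 100 in each line, no overlap of control and OD libraries where the response was called and, for responses in 1 line, a 95% interval of the other line within -1 to 1. To these were added 3 per direction among genes expressed in 1 line only, and members of 31 lists, of which some are not reported here. The members and lists were chosen with earlier results of these data known. Alternatives were DESeq2 1.42.0, its size factors, library size, TMM within each line, other filters, 12 libraries only, a replicate block, limma-trend (limma 3.58.1) on the deposited log2 values, no fold limit, and leaving out each of 12 libraries. Positions come from GENCODE release 44, which matched 85.9% of the genes tested, and promoters from RefSeq (GRCh38.p14). Some named genes overlap another gene: 25 of 41 with a position, 21 of them on the opposite strand.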

Additional observations from a re-analysis of the deposited data

Results flagged for a closer look

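The response to OD differed between HT-29 and Caco-2, by the interaction term of edgeR, for 2724 genes. Among the named genes with opposite responses, the difference (HT-29 minus Caco-2, log2) was 4.57 for CYP4F3, 3.93 for PADI2, 3.10 for TRPV3, 3.08 for TRANK1 and 3.07 for BMF. It was -4.02 for FOS, -3.85 for EDN1, -3.79 for GPRC5A, -3.63 for ARHGAP45 and -3.43 for EPHA2. Among genes with a response in HT-29 only, it was 4.69 for AKR1C1, 3.82 for AKR1C2, 3.31 for RAB3B, 3.12 for ACSS2 and 2.99 for ITPKA, and -4.25 for EGR1, -2.45 for SLC38A11, -2.27 for AJUBA, -2.16 for CCN2 and -2.14 for NCOA5. Among genes with a response in Caco-2 only, it was -2.83 for PDK1, -2.64 for EMP1, -2.50 for GCNT3, -2.44 for GABRA2 and -2.39 for LIMCH1, and 2.14 for ATP10B, 1.66 for RCBTB1, 1.48 for GSTA4, 1.46 for GLUD1 and 1.46 for LBX2-AS1.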

How the results depend on the processing

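The difference was called for 2680 to 2778 genes with DESeq2, DESeq2 size factors, library size, TMM within each line, no filter on low counts and the 12 control and OD libraries alone, against 2724. Among genes expressed in both lines and fitted alone, 2190 were called, 69 opposite responses exceeded 1 in both lines, and the median difference was 0.76 for NF-kB targets, -0.12 for Wnt targets, 0.85 for iron handling, 0.85 for oxidases of the NOX family and 0.090 for endothelial markers. This setting tests fewer genes. With limma-trend run on the log2 table, which tested 11354 genes, 795 were called, 423 higher and 372 lower in HT-29, with 439 opposite responses, 12 of them over 1 in both lines, 241 in HT-29 only and 71 in Caco-2 only, and LIMCH1 fell to -0.94 and ATP10B to 0.80. The median of the Wnt targets was 0.30 there against -0.59, and the cause was not tested. Without a limit on the fold change the counts were 7682 in all, 3742 higher and 3940 lower, 1747 opposite, 2526 in HT-29 only and 1825 in Caco-2 only.

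Leaving out each control or OD library in turn gave 2562 to 2782 calls, 1496 to 1650 higher and 1052 to 1132 lower, 825 to 947 opposite responses, 89 to 113 of them over 1 in both lines, 916 to 969 in HT-29 only and 424 to 498 in Caco-2 only. The replicate numbers did not pair the libraries, with correlations of -0.027 to 0.021 between same-numbered libraries, and a replicate block within each line gave 2673 calls, 2642 of them shared. Counts near 0 in 1 line limit what can be said of a response there.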
